A study of Homo sapiens with 9 samples.

Results

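Interferon-stimulated genes are genes whose transcription rises when a cell answers an interferon, and 42 well-known ones were followed here across 9 arrays of the pancreatic carcinoma line PANC-1. The rule took the 42 by name and used no values, but the list was chosen with earlier results of these data known. Every probe set that the array annotation gives to exactly 1 gene, that gene being on the list, was used. This found 73 probe sets for 41 of the 42 genes, out of 41091 single-gene probe sets for 19775 genes on the whole array. STAT2 has no such probe set in the annotation used and was not analysed here. The genes fall into 10 classes by role: the IFIT and OAS families, other antiviral effectors, RNA sensors, transcription factors, the ISG15 system, guanylate-binding proteins, a group of PARP proteins and ubiquitin ligases, genes with the IFI prefix, and 4 others.

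PANC-1 is a human pancreatic adenocarcinoma cell line. Cells grown in medium with 10% serum were moved the next day to a medium with 1% charcoal-filtered serum and kept for 72 hours with DMSO, with 0.1 µM TVB-3166 or with 1.0 µM TVB-3166, 3 arrays each. TVB-3166 is an inhibitor of fatty acid synthase, the enzyme that makes palmitate, and the study asks how blocking that synthesis changes gene expression in these tumour cells. The titles were followed for the groups because other label fields conflict with them: a treatment entry of 0.1 µM stands on the arrays titled 1.0 µM, replicate 1 of the 0.1 µM group is described as DMSO, and the vehicle is given as 0.05% in one field and as 0.5% in another. Treatments were made in triplicate, and since no label says that the replicates were separate cultures, the spread behind the p-values may be technical.

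Interferons are secreted when a cell senses foreign nucleic acid, for example through the RNA helicases RIG-I and MDA5. They bind receptors on the cell surface, the receptor's Janus kinases phosphorylate STAT proteins, and a complex that holds STAT2 and IRF9 binds the interferon-stimulated response element (ISRE) in the promoters of target genes. Interferon regulatory factors such as IRF1 and IRF7 bind similar elements. The induced proteins block viral entry, translation and replication, tag or degrade RNA and protein, and damp the response again.

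After 72 hours of TVB-3166, 18 of the interferon-stimulated genes were called higher than in DMSO at both doses, and none was called lower at either. At 0.1 µM, 23 of the 41 genes rose, none fell and 18 were not called, where 4.1% of all genes tested were called higher and 2.96% lower. At 1.0 µM, 20 rose, none fell and 21 were not called, where 7.72% of all genes were called higher and 6.82% lower. The median log2 change of the 41 genes was 0.60 at 0.1 µM and 0.56 at 1.0 µM, beside 0.00 and 0.01 over all genes. At an unadjusted p under 0.05, limma gave 28 genes higher and 1 lower at 0.1 µM, and 26 higher and 1 lower at 1.0 µM. Called means an adjusted p under 0.05 in limma's moderated test with Benjamini-Hochberg adjustment over all 19775 genes, and a log2 change is the difference of group means of log2(signal + 16), where the signal is the array's linear intensity. The added 16 makes the change of dim genes smaller than the ratio of their signals. RNA of a whole culture was measured, so more cells that express a gene and more RNA per cell cannot be told apart.

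The 18 genes that rose at both doses were IFIT1, IFIT2, IFIT3, IFIT5, OAS2, OASL, MX1, ISG20, IFIH1, IRF1, IRF7, IRF9, HERC5, GBP3, PARP12, PARP14, IFI35 and XAF1. IFITM1, CMPK2, DDX58, ISG15 and PARP9 were called at 0.1 µM and missed the threshold at 1.0 µM, and DTX3L and SAMD9L were called at 1.0 µM and missed it at 0.1 µM. Both doses were compared with the same 3 DMSO arrays, so their counts are not independent. The other 16 genes were called at neither dose. All 3 treated arrays lay above all 3 DMSO arrays in 28 of the 41 genes at 0.1 µM, against 12.6% of all genes, and in 27 at 1.0 µM, against 15.3% of all genes. They lay below in SP110 at 0.1 µM, against 11.5% of all genes, and in SP110 and IFI6 at 1.0 µM, against 14.0% of all genes. The log2 change was above 0 in 38 of the 41 genes at 0.1 µM (50.0% of all genes) and in 34 at 1.0 µM (51.1% of all genes).

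The rise was seen in each treated array taken alone. The median difference of the 41 genes from the DMSO mean was 0.01, 0.02 and −0.04 in the DMSO arrays, 0.68, 0.68 and 0.59 at 0.1 µM, and 0.65, 0.54 and 0.63 at 1.0 µM, on the log2 scale. Of the 41 genes, 39, 37 and 34 lay above the DMSO mean in the 0.1 µM arrays and 35, 35 and 34 in the 1.0 µM arrays. Over all genes the same median stayed between −0.05 and 0.03 in the 9 arrays. The map of the 41 genes by array shows that the shift was carried by part of the list. GBP3, ISG20, IFIT2, IFIT3, IRF1 and OASL were in front at 1.0 µM, and USP18, TRIM21 and SAMD9 were near 0. At 0.1 µM, MX1 (1.87) and IFIT1 (1.73) were ahead of IRF1 (1.38).

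**Figure D1:**
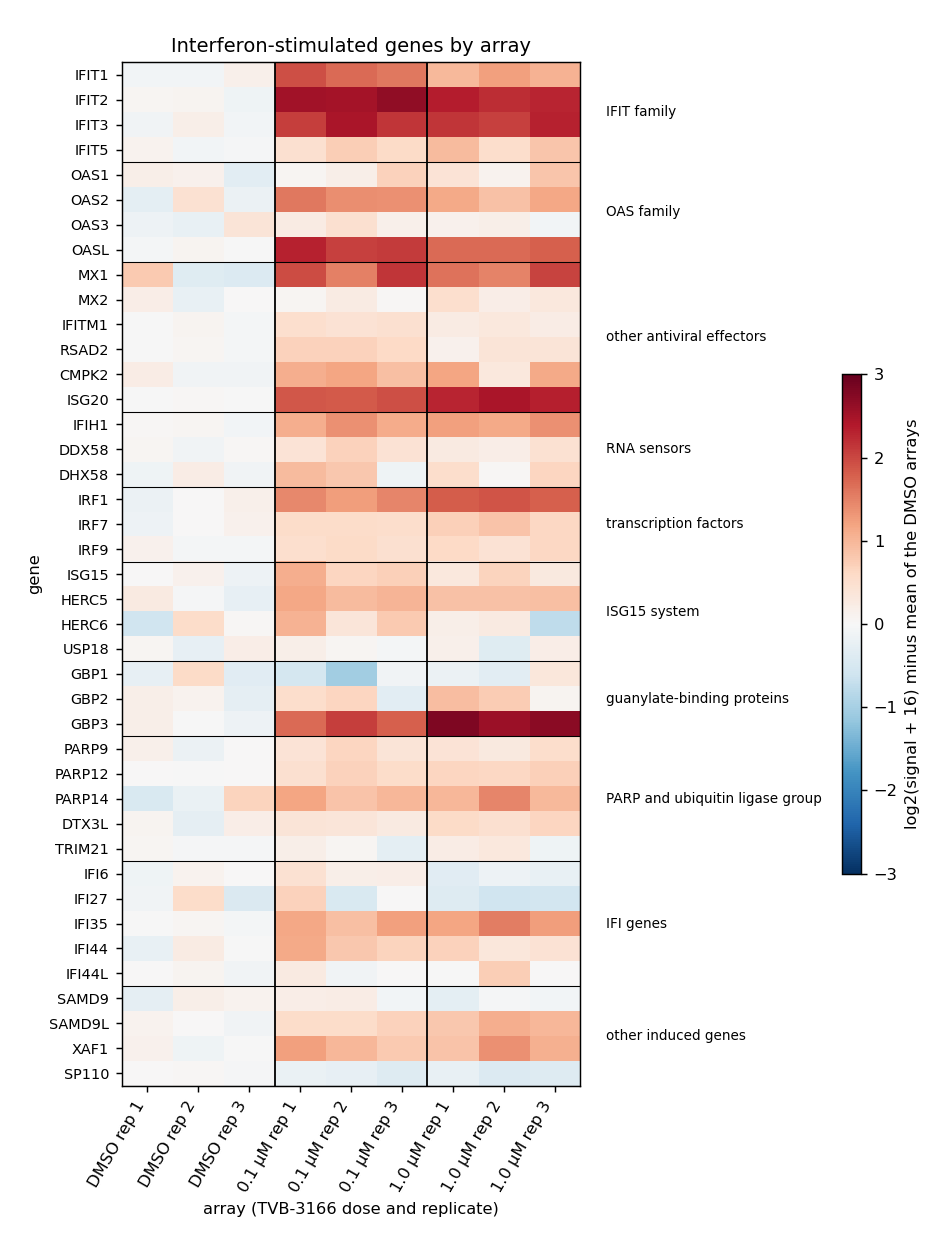
Colour gives log2(signal + 16) minus the mean of the DMSO arrays for each of 41 interferon-stimulated genes (rows, grouped by role) in each of the 9 arrays (columns, DMSO, 0.1 µM and 1.0 µM TVB-3166, 3 replicates each). IFIT2, IFIT3, OASL, ISG20, IRF1 and GBP3 are among the genes above 0 in all 6 treated arrays, while SP110 is slightly below 0 in all 6.

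Most of the promoters given for these genes hold the core letters of the element that the interferon complex binds. RefSeq promoter windows of 300 bases (250 before and 50 after the transcript start, GRCh38.p14) were given for 34 of the 42 genes, and an ISRE core, spelled GAAA, 2 free bases, GAAA and searched on both strands, was in 21 of them (61.8%), against 3.65% of 27305 gene windows in all. It was in 13 of 21 windows of genes called higher at either dose (61.9%) and in 8 of 12 windows of genes called at neither dose (66.7%). The interferon-gamma type element, TTCNNNGAA, was in 8 of the 34 windows (23.5%, against 7.88% of all), and an NF-kappaB type element, spelled GGG, 3 free bases, TTCC, in 3 (8.82%, against 6.47% of all). A match is only a match of letters, matches may overlap, and their use in these cells was not measured. The first 280 bases are shown for the 4 genes with the largest change at 1.0 µM among those with an ISRE core (GBP3, ISG20, IFIT3 and MX1). GBP1, which has the smallest change among them with 1 probe set per gene (−0.05), is shown beside them. Its other probe sets gave 1.12, 0.86 and 0.38 at 1.0 µM, all of them dim, so GBP1 does not stand for a gene without a response. Capitals mark the ISRE core on either strand (TTTC, 2 free bases, TTTC where it lies on the other strand), and each sequence runs 5′ to 3′ along the gene.
GBP3, chr1:89022837-89023116, minus strand: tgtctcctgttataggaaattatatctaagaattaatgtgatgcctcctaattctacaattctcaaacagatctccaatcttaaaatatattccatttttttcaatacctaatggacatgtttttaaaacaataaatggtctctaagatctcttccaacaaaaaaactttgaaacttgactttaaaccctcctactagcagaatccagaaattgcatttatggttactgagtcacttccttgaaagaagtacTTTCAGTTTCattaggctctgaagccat
ISG20, chr15:88638766-88639045, plus strand: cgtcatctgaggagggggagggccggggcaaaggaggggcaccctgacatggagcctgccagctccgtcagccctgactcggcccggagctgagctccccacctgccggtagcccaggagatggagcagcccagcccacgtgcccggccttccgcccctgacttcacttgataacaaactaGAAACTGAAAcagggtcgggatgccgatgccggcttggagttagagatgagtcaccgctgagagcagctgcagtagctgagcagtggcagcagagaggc
IFIT3, chr10:89327747-89328026, plus strand: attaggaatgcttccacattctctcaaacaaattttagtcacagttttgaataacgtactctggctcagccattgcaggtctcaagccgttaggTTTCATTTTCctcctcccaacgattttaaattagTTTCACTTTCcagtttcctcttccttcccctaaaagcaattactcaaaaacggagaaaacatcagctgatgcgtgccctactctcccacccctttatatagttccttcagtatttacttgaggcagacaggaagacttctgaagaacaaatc
MX1, chr21:41420308-41420587, plus strand: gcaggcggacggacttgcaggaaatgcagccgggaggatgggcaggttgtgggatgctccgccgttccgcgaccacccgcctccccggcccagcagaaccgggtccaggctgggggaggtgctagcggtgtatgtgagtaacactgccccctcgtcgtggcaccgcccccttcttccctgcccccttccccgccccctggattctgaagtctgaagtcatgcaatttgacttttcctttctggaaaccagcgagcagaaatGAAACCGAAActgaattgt
GBP1, chr1:89065179-89065458, minus strand: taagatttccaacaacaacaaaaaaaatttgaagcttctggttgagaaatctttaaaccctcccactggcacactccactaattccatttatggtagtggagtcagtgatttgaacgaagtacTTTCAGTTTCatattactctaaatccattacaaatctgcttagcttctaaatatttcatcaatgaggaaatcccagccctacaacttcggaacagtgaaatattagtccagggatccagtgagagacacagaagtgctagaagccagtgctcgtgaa
GBP3 and GBP1 share the core TTTCAGTTTC letter for letter, beginning 3 bases into the transcript in GBP3 and 127 bases before the start in GBP1. IFIT3 holds 2 cores, 156 and 122 bases before the start, ISG20 holds 1 at 69 bases before the start, and that of MX1 begins at base 12 of the transcript.

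The IFIT family, RNA-binding proteins with tetratricopeptide repeats that lie side by side on chromosome 10, rose as a whole: with 1 probe set per gene, 4 of 4 genes were called higher at each dose. IFIT2, which binds AU-rich RNA, had signals of 358.5, 369.8 and 313.7 in DMSO, 2065.6, 2043.5 and 2284.8 at 0.1 µM, and 1833.8, 1662.0 and 1752.2 at 1.0 µM. The treated arrays lay far above the DMSO arrays with no overlap. Its log2 change was 2.56 ± 0.09 at 0.1 µM (adjusted p = 2.55e-07) and 2.28 ± 0.09 at 1.0 µM (adjusted p = 1.3e-07), with limma standard errors and n = 3 arrays per group here and in what follows. IFIT3, the partner that stabilises IFIT1 on RNA, had signals of 559.9, 675.9 and 569.2 in DMSO, 2595.0, 3332.1 and 2693.8 at 0.1 µM, and 2703.3, 2529.6 and 3022.0 at 1.0 µM. The 2 doses overlapped each other and stood clear of DMSO. The change of IFIT3 was 2.22 ± 0.12 at 0.1 µM (adjusted p = 1.51e-06) and 2.16 ± 0.12 at 1.0 µM (adjusted p = 1e-06). IFIT1, which captures viral RNA with an unmethylated cap, had signals of 568.4, 574.1 and 675.1 in DMSO, 2340.6, 1995.1 and 1825.4 at 0.1 µM, and 1200.8, 1448.6 and 1256.1 at 1.0 µM. The 3 groups did not overlap, and the middle place was held by the higher dose. IFIT1 changed by 1.73 ± 0.12 at 0.1 µM (adjusted p = 8.58e-06) and by 1.08 ± 0.12 at 1.0 µM (adjusted p = 9.17e-05). IFIT5, which binds RNA with a triphosphate end, rose less, by 0.60 ± 0.12 at 0.1 µM (adjusted p = 0.011) and 0.77 ± 0.12 at 1.0 µM (adjusted p = 0.00123). The 0.1 µM call of IFIT5 ended without the intensity trend in limma (adjusted p = 0.0514). A second, dimmer IFIT5 probe set was called at neither dose when limma tested all probe sets. It gave 0.20 ± 0.20 at 0.1 µM (adjusted p = 0.7) and 0.46 ± 0.20 at 1.0 µM (adjusted p = 0.208).

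Of the OAS family on chromosome 12, 2 of 4 genes rose at each dose. OASL, a relative that makes no oligoadenylate and binds RIG-I, had signals of 274.5, 304.9 and 284.6 in DMSO, 1485.5, 1244.7 and 1276.2 at 0.1 µM, and 969.7, 962.9 and 1038.2 at 1.0 µM. Every treated array was more than 3 times the highest DMSO array, and the groups were apart. OASL changed by 2.15 ± 0.10 at 0.1 µM (adjusted p = 7.3e-07) and by 1.73 ± 0.10 at 1.0 µM (adjusted p = 1.53e-06). OAS2, an enzyme whose oligoadenylates activate RNase L, was dim, with signals of 32.8, 65.6 and 36.4 in DMSO, 161.3, 140.2 and 136.7 at 0.1 µM, and 114.2, 92.3 and 117.1 at 1.0 µM. All treated arrays were above all DMSO arrays. The change of OAS2 was 1.45 ± 0.25 at 0.1 µM (adjusted p = 0.00515) and 1.06 ± 0.25 at 1.0 µM (adjusted p = 0.0163). Its 1.0 µM call was lost on dropping replicate 1 or 3 of DMSO (0.0622 and 0.0515 as adjusted p) or of 1.0 µM (0.0592 and 0.0668), and with the mean of its 3 probe sets it was lost at both doses (0.56, adjusted p = 0.1, at 1.0 µM and 0.73, adjusted p = 0.0596, at 0.1 µM). The other oligoadenylate synthetases, OAS1 and OAS3, were not called: OAS1 averaged 52.0 ± 12.4 in DMSO, 68.8 ± 20.3 at 0.1 µM and 78.0 ± 24.5 at 1.0 µM (SD), and OAS3 averaged 389 ± 99.6, 475 ± 58.5 and 404 ± 39.2 in the same order.

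Among the 6 other antiviral effectors, 4 rose at 0.1 µM and 2 at 1.0 µM. ISG20 (chromosome 15), an exonuclease that degrades single-stranded RNA and whose promoter is shown above, had signals of 239.9, 247.5 and 241.8 in DMSO, 925.4, 907.6 and 969.9 at 0.1 µM, and 1241.6, 1387.6 and 1278.0 at 1.0 µM. The 3 groups were tight and did not overlap. ISG20 changed by 1.87 ± 0.09 at 0.1 µM (adjusted p = 7.3e-07) and by 2.35 ± 0.09 at 1.0 µM (adjusted p = 1.06e-07). MX1, a dynamin-like GTPase that restricts influenza virus, had signals of 65.1, 20.8 and 19.3 in DMSO, 168.1, 119.7 and 191.6 at 0.1 µM, and 128.9, 117.2 and 176.7 at 1.0 µM. The treated arrays were all above the DMSO arrays, of which replicate 1 was the highest by far. MX1 changed by 1.87 ± 0.34 at 0.1 µM (adjusted p = 0.00632) and by 1.71 ± 0.34 at 1.0 µM (adjusted p = 0.00564), and its DMSO mean of 35.1 lies in the dimmest 40% of probe sets (signals up to 38.95). CMPK2, a mitochondrial nucleotide kinase, had signals of 60.7, 45.2 and 45.0 in DMSO, 123.2, 134.6 and 106.3 at 0.1 µM, and 132.8, 66.1 and 128.7 at 1.0 µM. At 1.0 µM replicate 2 was near the DMSO level and the other arrays were near those of 0.1 µM. CMPK2 rose by 1.05 ± 0.28 at 0.1 µM (adjusted p = 0.0426), and its change of 0.88 ± 0.28 at 1.0 µM missed the threshold (adjusted p = 0.0574). The 0.1 µM call of CMPK2 was lost on leaving out any 1 array other than 1.0 µM replicate 2 (adjusted p 0.0531 to 0.12), and without that replicate its 1.0 µM change of 1.15 was called (adjusted p = 0.012). IFITM1, which hinders fusion of virus with the cell membrane, rose by 0.48 ± 0.08 at 0.1 µM (adjusted p = 0.00371) and had a change of 0.25 ± 0.08 at 1.0 µM (adjusted p = 0.0546). Viperin, RSAD2, which makes a chain-terminating nucleotide and neighbours CMPK2 on chromosome 2, averaged 33.4 ± 2.19 in DMSO, 61.8 ± 2.96 at 0.1 µM and 45.4 ± 6.09 at 1.0 µM (SD), with no call. MX2, the relative of MX1 that blocks HIV, averaged 1318 ± 191 in DMSO, 1417 ± 125 at 0.1 µM and 1668 ± 186 at 1.0 µM (SD), with a call at 1.0 µM only when DMSO replicate 1 was left out (adjusted p = 0.0486) or the spike signal was a covariate (0.0127).

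**Figure D2:**
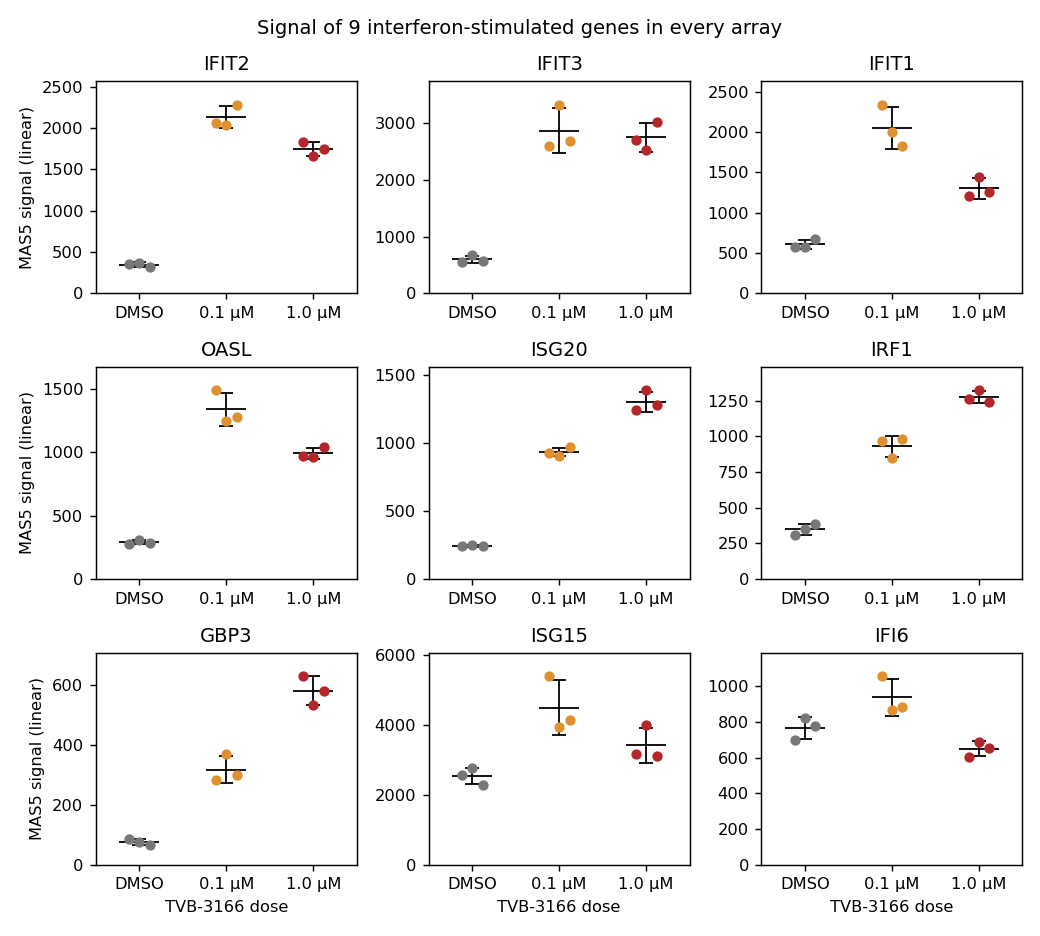
Linear MAS5 signal (vertical axes, each starting at 0) of 9 interferon-stimulated genes in DMSO, 0.1 µM and 1.0 µM TVB-3166; points are the 3 arrays of a group, the long bar is the mean and the short bars are ± SD. IFIT1, IFIT2, IFIT3, OASL, ISG15 and IFI6 have their highest mean at 0.1 µM, and ISG20, IRF1 and GBP3 at 1.0 µM. The arrays of the doses overlap in IFIT3, and IFI6 lies below DMSO at 1.0 µM.

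RNA sensors rose in 2 of 3 cases at 0.1 µM and 1 of 3 at 1.0 µM. IFIH1, which encodes MDA5, a sensor of long double-stranded RNA, had signals of 375.3, 380.5 and 348.0 in DMSO, 800.2, 980.7 and 809.4 at 0.1 µM, and 887.0, 821.9 and 978.8 at 1.0 µM. The doses overlapped each other, and no treated array came near DMSO. IFIH1 changed by 1.19 ± 0.11 at 0.1 µM (adjusted p = 8.9e-05) and by 1.25 ± 0.11 at 1.0 µM (adjusted p = 2.69e-05). With the mean of its 3 probe sets, 2 of them dim, both calls were lost (0.54, adjusted p = 0.177, at 0.1 µM and 0.51, adjusted p = 0.142, at 1.0 µM). DDX58 (now RIGI), which encodes RIG-I, had signals of 904.5, 805.1 and 889.3 in DMSO, 1158.5, 1409.1 and 1175.9 at 0.1 µM, and 1052.9, 988.7 and 1200.7 at 1.0 µM. Treated arrays were all above DMSO arrays and the doses overlapped. DDX58 rose by 0.51 ± 0.11 at 0.1 µM (adjusted p = 0.0142), a call lost without DMSO replicate 2 (adjusted p = 0.0578) and without the intensity trend (0.063), and changed by 0.31 ± 0.11 at 1.0 µM (adjusted p = 0.0819). Of its other probe sets, one was called at both doses (0.76 at 0.1 µM and 0.71 at 1.0 µM) and one at neither (0.31, adjusted p = 0.113, and 0.32, adjusted p = 0.0627). DHX58, which encodes the regulator LGP2, stayed dim, at 7.90 ± 3.30 in DMSO, 20.4 ± 13.1 at 0.1 µM and 16.1 ± 6.77 at 1.0 µM (SD).

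All 3 transcription factors that were measured rose at both doses. IRF1 (chromosome 5), an activator of interferon and antigen presentation genes, had signals of 306.9, 349.8 and 385.7 in DMSO, 964.1, 846.6 and 983.8 at 0.1 µM, and 1263.4, 1322.1 and 1240.3 at 1.0 µM. The groups were ordered by dose without overlap. IRF1 changed by 1.38 ± 0.11 at 0.1 µM (adjusted p = 2.33e-05) and by 1.83 ± 0.11 at 1.0 µM (adjusted p = 1.6e-06). IRF7, a driver of type I interferon transcription, had signals of 559.1, 624.4 and 681.3 in DMSO, 922.4, 920.3 and 895.0 at 0.1 µM, and 1034.3, 1135.0 and 958.0 at 1.0 µM. Here too the groups were ordered by dose without overlap, with changes of 0.55 ± 0.10 (adjusted p = 0.00679) at 0.1 µM and 0.73 ± 0.10 (adjusted p = 0.000513) at 1.0 µM. IRF9, the DNA-binding subunit of the complex that reads the ISRE, had signals of 759.1, 666.4 and 662.6 in DMSO, 988.5, 1041.2 and 983.2 at 0.1 µM, and 1061.5, 951.5 and 1068.9 at 1.0 µM. The doses overlapped above DMSO, with changes of 0.52 ± 0.09 (adjusted p = 0.00529) at 0.1 µM and 0.55 ± 0.09 (adjusted p = 0.00193) at 1.0 µM.

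The ISG15 system attaches the ubiquitin-like protein ISG15 to other proteins and removes it again. Of its 4 genes, 2 rose at 0.1 µM and 1 at 1.0 µM. HERC5, the main ligase, had signals of 214.4, 168.8 and 145.5 in DMSO, 410.0, 351.9 and 369.4 at 0.1 µM, and 331.7, 333.8 and 339.7 at 1.0 µM. The groups did not overlap, and the lower dose was highest. HERC5 changed by 1.04 ± 0.16 at 0.1 µM (adjusted p = 0.00202) and by 0.88 ± 0.16 at 1.0 µM (adjusted p = 0.00299). ISG15 itself had signals of 2569.6, 2761.3 and 2292.3 in DMSO, 5406.1, 3949.7 and 4137.6 at 0.1 µM, and 3164.1, 4006.2 and 3104.7 at 1.0 µM. Treated arrays were all above DMSO, and replicate 2 at 1.0 µM reached the range of 0.1 µM. ISG15 rose by 0.81 ± 0.14 at 0.1 µM (adjusted p = 0.0044), and its change of 0.42 ± 0.14 at 1.0 µM missed the threshold (adjusted p = 0.0669, or 0.0389 without 0.1 µM replicate 1). USP18, the protease that removes ISG15 and restrains the receptor, averaged 274 ± 44.4 in DMSO, 285 ± 23.8 at 0.1 µM and 275 ± 58.0 at 1.0 µM (SD). HERC6, beside HERC5 on chromosome 4, averaged 21.9 ± 14.5, 44.8 ± 13.7 and 19.0 ± 12.2 in the same order, with no call. A second, dimmer HERC6 probe set averaged 11.3 ± 8.65 in DMSO, 9.8 ± 6.5 at 0.1 µM and 36.9 ± 2.61 at 1.0 µM (SD), and was called higher at 1.0 µM when all probe sets were tested (1.00 ± 0.28, adjusted p = 0.0423).

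Of the guanylate-binding proteins, GTPases of chromosome 1 that attack the vacuoles of pathogens, 1 of 3 rose at each dose. GBP3 had signals of 87.5, 75.5 and 66.6 in DMSO, 283.8, 369.8 and 301.4 at 0.1 µM, and 630.6, 533.2 and 581.3 at 1.0 µM. Its groups were ordered by dose and wide apart. With 1 probe set per gene, GBP3 had the largest change of the 41 genes at 1.0 µM, 2.69 ± 0.16 (adjusted p = 2.19e-06), and changed by 1.85 ± 0.16 at 0.1 µM (adjusted p = 6.33e-05). GBP1, whose promoter holds the same ISRE core, was dim: its brightest probe set averaged 24.2 ± 15.0 in DMSO, 11.1 ± 8.71 at 0.1 µM and 21.9 ± 9.38 at 1.0 µM (SD). A dimmer probe set of GBP1 read 3.0, 2.0 and 4.0 in DMSO, 5.5, 8.6 and 5.2 at 0.1 µM, and 25.7, 16.2 and 36.8 at 1.0 µM. Those groups did not overlap, and with every probe set as a feature it was called at 1.0 µM (1.12 ± 0.22, adjusted p = 0.00601), while the brightest gave −0.05. GBP2 averaged 71.5 ± 14.2 in DMSO, 94.2 ± 35.7 at 0.1 µM and 119 ± 38.2 at 1.0 µM (SD), with no call.

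PARP9, PARP12 and PARP14 are ADP-ribosyltransferase family members with antiviral roles, DTX3L is the ubiquitin ligase that pairs with PARP9, and TRIM21 is a ubiquitin ligase that binds antibodies inside cells. Of these 5 genes, 3 rose at each dose, PARP12 and PARP14 at both. PARP14 had signals of 332.2, 405.4 and 742.2 in DMSO, 1083.5, 858.0 and 947.6 at 0.1 µM, and 935.7, 1310.6 and 924.6 at 1.0 µM. DMSO replicate 3 was much higher than the other DMSO arrays and still below every treated array. PARP14 changed by 1.02 ± 0.25 at 0.1 µM (adjusted p = 0.0293) and by 1.14 ± 0.25 at 1.0 µM (adjusted p = 0.00907). Its second, dimmer probe set was called at neither dose when all probe sets were tested (0.52 at 0.1 µM and 0.46 at 1.0 µM). The 0.1 µM call of PARP14 ended on dropping replicate 1 or 2 of DMSO (0.101 each as adjusted p), replicate 1 or 3 of 0.1 µM (0.11 and 0.1), or the trend (0.0926). PARP12 had signals of 815.8, 803.0 and 814.7 in DMSO, 1133.1, 1311.5 and 1202.7 at 0.1 µM, and 1280.1, 1258.4 and 1347.3 at 1.0 µM. The DMSO arrays were within a few percent of each other, and the overlapping doses stood above them, with changes of 0.57 ± 0.08 (adjusted p = 0.00151) at 0.1 µM and 0.66 ± 0.08 (adjusted p = 0.000263) at 1.0 µM. DTX3L had signals of 1074.7, 840.0 and 1183.5 in DMSO, 1350.7, 1321.9 and 1230.5 at 0.1 µM, and 1523.2, 1434.9 and 1595.5 at 1.0 µM. Its groups were ordered by dose without overlap, with a called change at 1.0 µM (0.56 ± 0.12, adjusted p = 0.0077) and 0.34 ± 0.12 at 0.1 µM (adjusted p = 0.122, or 0.0494 without DMSO replicate 3). PARP9 rose by 0.48 ± 0.13 at 0.1 µM (adjusted p = 0.0414) and had 0.41 ± 0.13 at 1.0 µM (adjusted p = 0.0525, or 0.0434 without DMSO replicate 1 and 0.0441 without 1.0 µM replicate 2). The PARP9 call at 0.1 µM was lost on dropping replicate 2 or 3 of DMSO (0.132 and 0.0831 as adjusted p), any 1 array of 0.1 µM (0.0894 to 0.125), or replicate 1 or 3 of 1.0 µM (0.0654 and 0.0587). Its second probe set gave −0.25 at 0.1 µM and −0.21 at 1.0 µM, and with the mean of both the change at 0.1 µM was 0.12 (adjusted p = 0.678). TRIM21 averaged 1065 ± 43.5 in DMSO, 1061 ± 180 at 0.1 µM and 1184 ± 189 at 1.0 µM (SD), with no call.

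IFI genes share a prefix, not a function, and 1 of 5 rose. IFI35, a leucine zipper protein that pairs with NMI, had signals of 1025.9, 1065.2 and 989.8 in DMSO, 2324.6, 1917.3 and 2431.4 at 0.1 µM, and 2341.7, 3021.2 and 2468.0 at 1.0 µM. The doses overlapped far above DMSO. IFI35 changed by 1.10 ± 0.12 at 0.1 µM (adjusted p = 0.000179) and by 1.32 ± 0.12 at 1.0 µM (adjusted p = 2.17e-05). IFI6, a mitochondrial inhibitor of apoptosis, had signals of 697.7, 825.3 and 776.5 in DMSO, 1057.2, 869.1 and 886.4 at 0.1 µM, and 605.7, 690.6 and 653.3 at 1.0 µM. All its 0.1 µM arrays were above DMSO and all its 1.0 µM arrays below, yet neither difference was called (0.28 ± 0.11, adjusted p = 0.169, at 0.1 µM and −0.23 ± 0.11, adjusted p = 0.209, at 1.0 µM). IFI44 averaged 50.9 ± 10.7 in DMSO, 106 ± 20.9 at 0.1 µM and 78.1 ± 12.3 at 1.0 µM (SD), with a change of 0.87 ± 0.25 at 0.1 µM that missed the threshold (adjusted p = 0.0597). IFI44L, its neighbour on chromosome 1, averaged 2.73 in DMSO, 3.70 at 0.1 µM and 6.93 at 1.0 µM, and IFI27 averaged 15.7, 17.9 and 5.47 in the same order, all within the dimmest 40% of probe sets.

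Of the 4 remaining genes, 2 rose at 1.0 µM and 1 at 0.1 µM. XAF1, which counters the apoptosis inhibitor XIAP, had signals of 110.8, 90.9 and 100.2 in DMSO, 259.1, 214.3 and 183.1 at 0.1 µM, and 195.7, 287.0 and 226.9 at 1.0 µM. Treated arrays were all above DMSO and mixed between doses. XAF1 changed by 1.00 ± 0.20 at 0.1 µM (adjusted p = 0.0122, or 0.0623 without 0.1 µM replicate 1) and by 1.10 ± 0.20 at 1.0 µM (adjusted p = 0.0036). When all probe sets were tested, a dimmer one of XAF1 was called at 1.0 µM (1.06, adjusted p = 0.022) and not at 0.1 µM (0.89, adjusted p = 0.0826). Another was called at neither dose (0.35 at 0.1 µM and 0.48 at 1.0 µM). SAMD9L, a restriction factor of poxviruses, had signals of 73.9, 67.7 and 61.3 in DMSO, 106.2, 106.6 and 119.4 at 0.1 µM, and 129.6, 161.8 and 150.3 at 1.0 µM. The groups were ordered by dose without overlap. SAMD9L rose by 0.96 ± 0.20 at 1.0 µM (adjusted p = 0.00838, and 0.40 with adjusted p = 0.277 for the mean of its 3 probe sets), and its 0.60 ± 0.20 at 0.1 µM was not called (adjusted p = 0.118). SAMD9, its neighbour on chromosome 7, averaged 162 ± 27.8 in DMSO, 177 ± 21.7 at 0.1 µM and 145 ± 15.3 at 1.0 µM (SD). SP110, a nuclear body protein, went the other way, with signals of 563.4, 569.6 and 543.4 in DMSO, 487.4, 468.4 and 421.4 at 0.1 µM, and 473.9, 414.9 and 422.9 at 1.0 µM. All 6 treated arrays of SP110 were below all DMSO arrays, and neither change was called (−0.28 ± 0.11, adjusted p = 0.176, at 0.1 µM and −0.34 ± 0.11, adjusted p = 0.057, at 1.0 µM). At 1.0 µM the SP110 value was called lower with a filter on dim probe sets (adjusted p = 0.0411 at the 40th percentile), with the spike signal as a covariate (0.0394) and with array weights (0.0305).

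Where a gene had more than 1 probe set, its probe sets were also fitted one by one. Of the 73 probe sets, 28 were called higher at 0.1 µM and 29 at 1.0 µM and none lower, when all 41091 single-gene probe sets were tested and 2.83% and 5.7% were called higher and 2.08% and 5.41% lower. IFIT2, IFIT3, OASL, ISG20 and IRF1, 5 of the 11 genes called at 1.0 µM that had several probe sets, were called by every one. At 1.0 µM the IFIT2 probe sets gave 2.28 ± 0.09 and 1.60 ± 0.10, and those of IFIT3 gave 2.16 ± 0.12 and 1.56 ± 0.12. The ISG20 probe sets gave 2.35 ± 0.09 and 3.98 ± 0.41, those of IRF1 gave 1.83 ± 0.10 and 1.95 ± 0.16, and those of OASL gave 1.73 ± 0.10 and 1.94 ± 0.11. In 5 genes, HERC6, GBP1, PARP9, SAMD9 and SAMD9L, probe sets differed in sign. The 5 probe sets of SP110 ranged from −0.81 to −0.02.

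**Figure D3:**
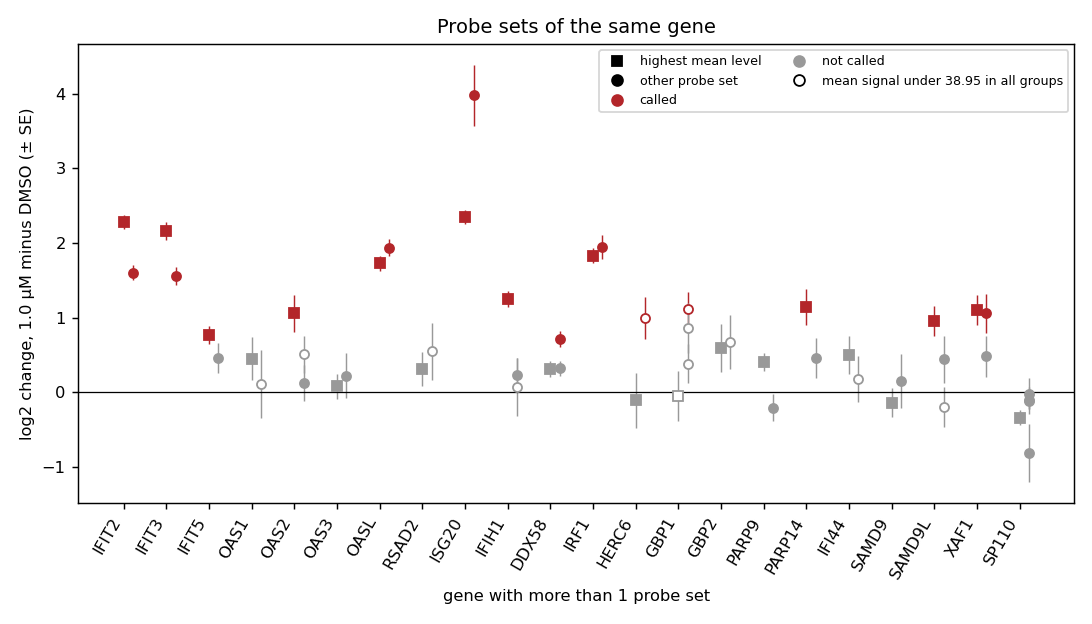
Log2 change at 1.0 µM against DMSO, ± limma standard error, for every probe set of the 22 genes that have more than 1; squares mark the probe set with the highest mean level, circles the others, red a call, and open symbols a mean signal under 38.95 in all groups. Both probe sets of IFIT2, IFIT3, OASL, ISG20 and IRF1 are red, while 1 square and 3 circles of GBP1 are all open.

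Set against each other, the doses differed little in the median of the 41 genes. The median log2 difference between 1.0 µM and 0.1 µM was −0.07, with 19 genes above 0 and 22 below (50.5% of all genes were above 0). Of the 41 genes, none was called higher and 1 was called lower, where 0.152% of all genes were called higher and 0.187% lower, and at an unadjusted p under 0.05 in limma 3 were higher and 7 lower. That gene was IFIT1, at −0.65 ± 0.12 (adjusted p = 0.0489). The IFIT1 call stood close to the threshold and ended in 15 of 23 other settings: without 0.1 µM replicate 1 the difference was −0.55 (adjusted p = 0.227), it lost its call without either other 0.1 µM array, without 1.0 µM replicate 1 or 3 or without DMSO replicate 1 or 2 (adjusted p 0.0703 to 0.216), and without the trend the adjusted p was 0.19. All 1.0 µM arrays lay below all 0.1 µM arrays in 9 genes (IFIT1, IFIT2, OAS2, OASL, IFITM1, RSAD2, HERC5, HERC6 and IFI6), where 7.72% of all genes did so. They lay above in 6 genes (ISG20, IRF1, IRF7, GBP3, DTX3L and SAMD9L), where 8.43% of all genes did so. Differences that missed the threshold were 0.84 ± 0.16 for GBP3 (adjusted p = 0.0612), 0.47 ± 0.09 for ISG20 (0.0546), 0.45 ± 0.11 for IRF1 (0.121), −0.42 ± 0.10 for OASL (0.118) and −0.51 ± 0.11 for IFI6 (0.0858). Among the 18 genes that rose at both doses, 7 had the larger change at 0.1 µM and 11 at 1.0 µM. Several of these differences were smaller than their standard error, such as IRF9 (0.03 ± 0.09), IFIH1 (0.05 ± 0.11), IFIT3 (−0.06 ± 0.12) and MX1 (−0.16 ± 0.34), so the split gives no dose order for them.

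**Figure D4:**
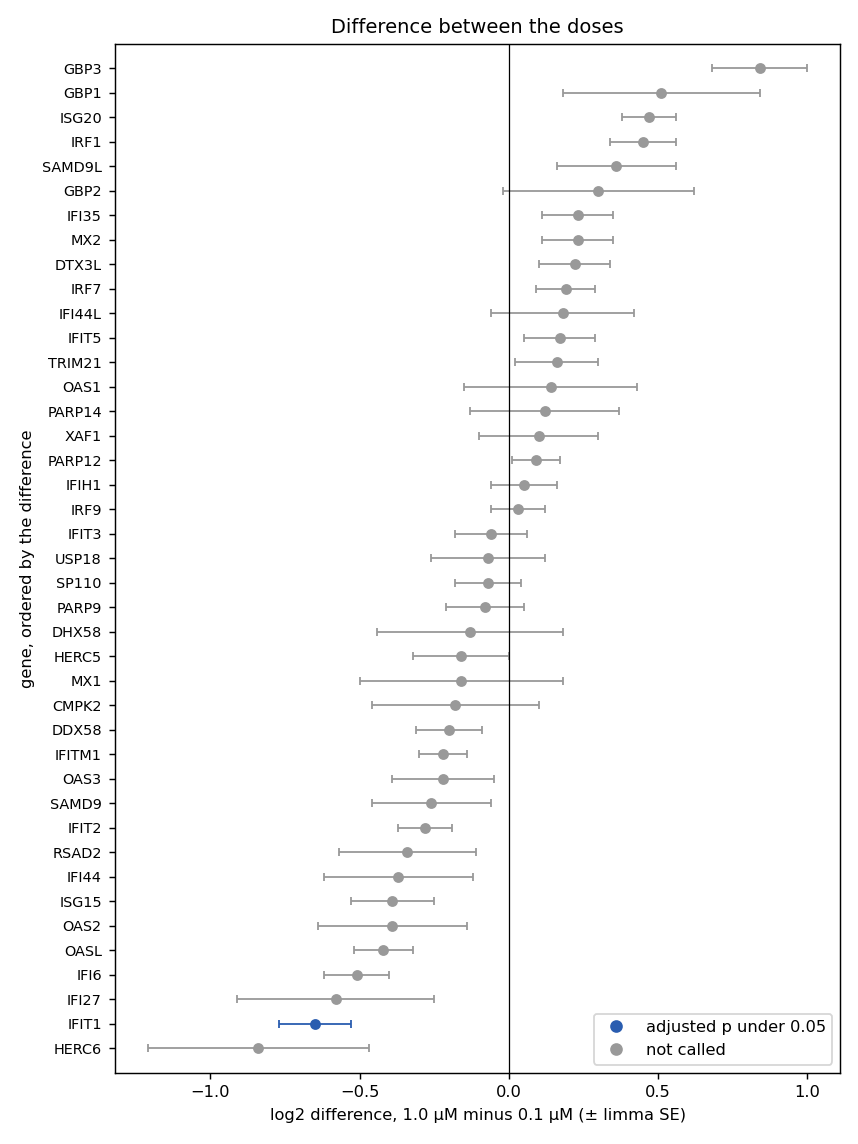
Log2 difference of 1.0 µM minus 0.1 µM TVB-3166 (horizontal axis, ± limma standard error, 3 arrays per group) for the 41 genes, ordered by size from HERC6 at −0.84 to GBP3 at 0.84. IFIT1, in blue, is the 1 gene called; the others, in grey, were not called.

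Other genes of the interferon pathway had smaller median changes. Over 106 tested genes of 7 lists of pathway genes outside the 42, 16 were called higher and 2 lower at 0.1 µM, and 22 higher and 4 lower at 1.0 µM, with medians of 0.14 and 0.18. Over all genes, 4.1% were called higher and 2.96% lower at 0.1 µM, and 7.72% higher and 6.82% lower at 1.0 µM, so the lower calls in the lists were not more frequent than over all genes. Interferon genes themselves gave no call at either dose in limma, with 1 lower at 0.1 µM and 1 higher at 1.0 µM at an unadjusted p under 0.05. The 18 ligand genes tested had mean signals of 1.87 to 81.5 in DMSO, 3.07 to 85.3 at 0.1 µM and 2.53 to 108 at 1.0 µM, and 14 of them were in the dimmest 40% of probe sets in every group. IFNB1, the first interferon made in many infected cells, averaged 4.0 in DMSO, 4.47 at 0.1 µM and 10.1 at 1.0 µM. The interferon lambda genes IFNL1 and IFNL2 were at 81.5 and 68.8 in DMSO, 84.8 and 85.3 at 0.1 µM, and 108 and 95.7 at 1.0 µM. Of 6 receptor chains, 1 was called: IFNGR1, the ligand-binding chain for interferon gamma, rose by 0.44 ± 0.12 at 1.0 µM (adjusted p = 0.0312), a call that was lost on dropping replicate 2 or 3 of DMSO (0.0898 and 0.0996 as adjusted p), replicate 3 of 0.1 µM (0.0506), or replicate 1 or 3 of 1.0 µM (0.104 and 0.131). The other chains had changes of −0.31 to 0.25 there. None of the 10 Janus kinase and transcription factor genes tested was called at either dose, with 2 higher at 0.1 µM, and 1 higher and 1 lower at 1.0 µM, at an unadjusted p under 0.05 in limma.

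Of 17 sensors and adaptors, 2 rose and none fell at 0.1 µM, and 2 rose and 1 fell at 1.0 µM, beside the shares of all genes just given. At 0.1 µM, 2 were higher and 0 lower at an unadjusted p under 0.05 in limma. TRIM25, the ubiquitin ligase that activates RIG-I, had signals of 1201.4, 1212.0 and 1545.8 in DMSO, 2015.2, 1917.2 and 2019.5 at 0.1 µM, and 2617.8, 2837.2 and 2599.8 at 1.0 µM. Its groups were ordered by dose without overlap, and it rose by 0.59 ± 0.10 at 0.1 µM (adjusted p = 0.00465) and 1.02 ± 0.10 at 1.0 µM (adjusted p = 5.16e-05). STING1, the adaptor of DNA sensing, rose by 0.54 ± 0.14 at 0.1 µM (adjusted p = 0.0425) and 0.55 ± 0.14 at 1.0 µM (adjusted p = 0.023), calls lost at both doses without DMSO replicate 1 or 2 (adjusted p 0.0683 to 0.144), at 0.1 µM also without any 1 array of 0.1 µM (0.0929 to 0.144) or replicate 1 of 1.0 µM (0.0656), and at 1.0 µM without its replicate 1 or 2 (0.084 and 0.0666). MYD88, the adaptor of Toll-like receptors, fell by 0.38 on the log2 scale at 1.0 µM (adjusted p = 0.00562). Of 6 inhibitors, SOCS3, which blocks Janus kinases, rose by 0.62 ± 0.09 at 0.1 µM (adjusted p = 0.0013) and 0.94 ± 0.09 at 1.0 µM (adjusted p = 3.43e-05), while PIAS1, a SUMO ligase that restrains STAT binding, fell by 0.55 and 0.86 (adjusted p = 0.00173 and 3.88e-05). With the mean of all probe sets both calls of SOCS3 were lost (0.08 at 0.1 µM and 0.23 at 1.0 µM), as was that of PIAS1 at 0.1 µM (adjusted p = 0.123). PTPN2, a phosphatase of Janus kinases, rose by 0.32 ± 0.09 at 1.0 µM (adjusted p = 0.0471), a call that ended on leaving out any 1 array (adjusted p 0.0516 to 0.134).

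Other interferon-induced effectors outside the 42 gave 8 calls higher and 1 lower among 29 genes at 0.1 µM (4.1% and 2.96% of all genes). At 1.0 µM they gave 10 higher and 2 lower (7.72% and 6.82% of all genes). The lower calls were SAMHD1 at 0.1 µM (−0.58 ± 0.15, adjusted p = 0.0461), and LY6E (−0.71 ± 0.19, adjusted p = 0.0244) and LGALS3BP (−0.38 ± 0.10, adjusted p = 0.022) at 1.0 µM. Each of these lower calls was lost on leaving out some single arrays. LAMP3, a lysosomal membrane protein, had signals of 677.1, 709.5 and 682.4 in DMSO, 2382.1, 2442.2 and 2650.9 at 0.1 µM, and 3842.6, 3882.2 and 3809.2 at 1.0 µM. It was ordered by dose without overlap, rose by 1.83 ± 0.07 at 0.1 µM (adjusted p = 3.39e-07) and 2.45 ± 0.07 at 1.0 µM (adjusted p = 4.08e-08), and was higher at 1.0 µM than at 0.1 µM (0.62 ± 0.07, adjusted p = 0.0072). That last call ended without 0.1 µM replicate 1 (adjusted p = 0.0577), without 1.0 µM replicate 1 (0.0511) or 3 (0.0653), and without the trend (0.105). TRIM38, a ubiquitin ligase, rose by 0.64 ± 0.10 at 0.1 µM (adjusted p = 0.00214) and 1.14 ± 0.10 at 1.0 µM (adjusted p = 1.99e-05), and UBE2L6, the conjugating enzyme for ISG15, by 0.85 ± 0.09 (adjusted p = 0.000179) and 1.00 ± 0.09 (adjusted p = 2.5e-05). The 0.1 µM call of TRIM38 was lost with the mean of its probe sets (adjusted p = 0.0719). Of 20 genes of interferon gamma response and antigen presentation, 5 rose at 0.1 µM, 7 at 1.0 µM and none fell, beside the same shares of all genes. WARS1, a tryptophan-tRNA ligase, had signals of 1678.1, 1604.3 and 1750.2 in DMSO, 5227.2, 6381.2 and 5515.7 at 0.1 µM, and 6582.9, 6829.6 and 6747.5 at 1.0 µM. Its groups did not overlap, with changes of 1.75 ± 0.09 (adjusted p = 1.51e-06) at 0.1 µM and 1.99 ± 0.09 (adjusted p = 2.67e-07) at 1.0 µM. The peptide transporter subunits TAP1 and TAP2 rose by 1.12 ± 0.13 and 0.38 ± 0.08 at 0.1 µM (adjusted p = 0.00047 and 0.011) and by 1.25 ± 0.13 and 0.62 ± 0.08 at 1.0 µM (adjusted p = 9.14e-05 and 0.000212), and the calls of TAP2 were lost with the mean of its probe sets (adjusted p = 0.0748 and 0.0596) and, at 0.1 µM, without 0.1 µM replicate 1 (0.0501).

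**Figure D5:**
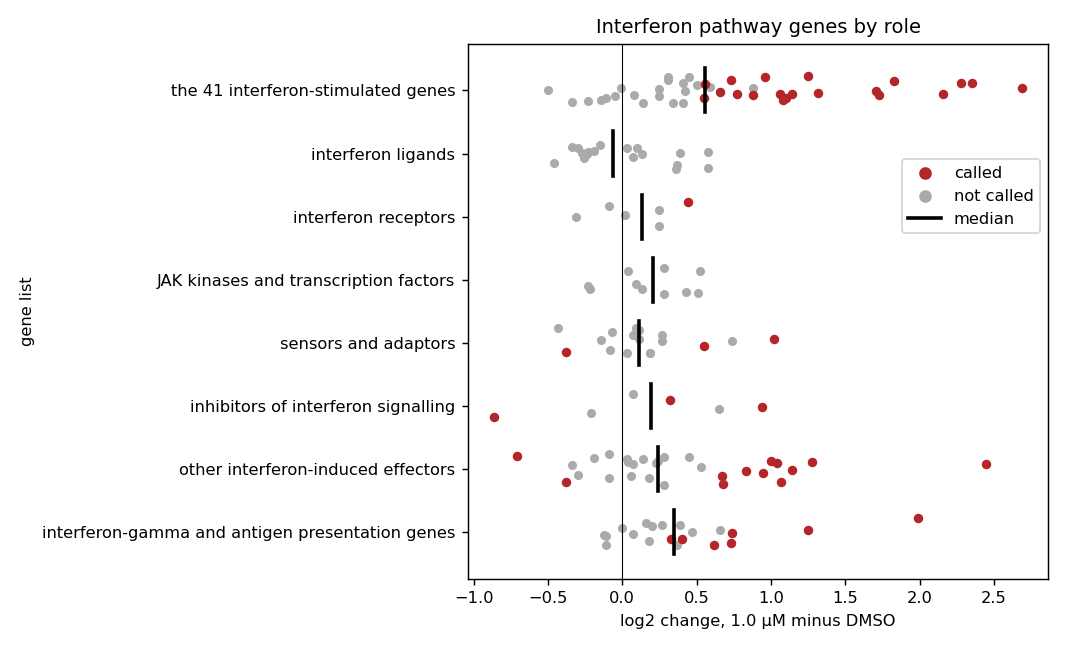
Log2 change at 1.0 µM against DMSO for the 41 interferon-stimulated genes and for 7 lists of other interferon pathway genes; each point is a gene, red where called, placed at random heights within its row, and the black bar is the list's median. The median of the 41 genes lies at 0.56 and those of the other lists between −0.06 for ligands and 0.35 for interferon gamma and antigen presentation genes.

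The labelled cell type was checked on its markers and on those of other cell types. KRT8, KRT18, KRT19 and VIM were bright (averages of 19993, 21984, 20399 and 19395 in DMSO). The other listed markers of the line were lower in DMSO, with KRT7 at 318 and CDH1, the epithelial cadherin, at 1504. At 0.1 µM KRT7 rose by 1.11 and CDH1 fell by 0.59 (limma, adjusted p = 0.000153 and 0.0222). With the mean of probe sets both of these calls were lost (0.35, adjusted p = 0.284, and −0.30, adjusted p = 0.0942), and that of CDH1 also without DMSO replicate 1 or 3 or 0.1 µM replicate 1 or 3 (adjusted p 0.0564 to 0.0972). At 1.0 µM KRT8 and KRT19 fell by 0.86 and 0.90 while KRT7 rose by 1.06 (limma, adjusted p = 0.00394, 0.006 and 8.83e-05), the last a call lost with the mean of its probe sets (0.31, adjusted p = 0.287). None of 11 immune and red blood cell markers, 8 endothelial and fibroblast markers or 6 acinar and endocrine markers was called at either dose in limma. At 1.0 µM, 1 immune marker had an unadjusted p under 0.05 in limma. The summed signal of the 11 immune and red blood cell markers was 485 to 759 in DMSO, 578 to 698 at 0.1 µM and 555 to 776 at 1.0 µM. A large part of that sum was HBB, the haemoglobin beta gene of red blood cells, which averaged 134, 92.9 and 149 in the same order. PTPRC, the pan-leukocyte marker, averaged 14.2, 28.0 and 12.3. The summed signal of the 41 interferon-stimulated genes was 20848 to 21042 in DMSO, 36607 to 39261 at 0.1 µM and 35768 to 36895 at 1.0 µM. The trimmed mean signal was 500.1 on every array. Mean log2 signals of the bacterial hybridisation spikes differed between arrays within every group, over 11.28 to 11.94 in DMSO, 11.23 to 12.13 at 0.1 µM and 11.24 to 12.10 at 1.0 µM. High arrays were replicate 2 of DMSO (11.94), replicates 1 and 3 of 0.1 µM (12.13 and 12.07) and replicate 2 of 1.0 µM (12.10). With the spike signal as a covariate 24 of the 41 genes were called higher at 0.1 µM (5.69% of all genes) and 26 at 1.0 µM (10.8% of all genes). Over all genes, calls in either direction then numbered 4130 at 1.0 µM and 210 between doses, against 2875 and 67 without the covariate.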

How the data were processed

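Total RNA of PANC-1 cells was hybridised to 9 Affymetrix HG-U133 Plus 2.0 arrays, 3 each for DMSO, 0.1 µM and 1.0 µM TVB-3166. The authors deposited 1 linear intensity (signal) per probe set, made with MAS5 per the submitters' processing notes (version not given in the sources used here). With 2% of values trimmed from either end, every array averages 500.1, so the arrays carry a common scale. No count stands behind a signal, and the number of arrays limits the precision.

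From these, log2(signal + 16) was computed without further normalization or a filter on level, so that no gene entered the test only through a group where it is high. Of 54675 probe sets, 62 controls, 1801 with several gene symbols and 11721 with none listed were left out; 41037 of the 41091 others matched the RefSeq gene table (GRCh38.p14) by Entrez identifier. Probe sets ending in _s_at or _x_at can bind related transcripts. The probe set with the highest mean stood for each of 19775 genes. All 9 arrays entered 1 model in limma 3.58.1 (lmFit and trended eBayes; two-sided; 6 residual and 5.09 prior degrees of freedom) in R 4.3.3, adjusted by Benjamini-Hochberg over all genes of a comparison and called at an adjusted p under 0.05. The code was tested on simulated data.

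The 42 genes, the pathway and marker lists and the alternatives were chosen with earlier results of these data known. Values of every array are given for up to 3 called genes of each role class with the largest change at either dose and for any gene called between doses. Pathway genes are named up to 3 per list, those called with the smallest p, with array values for TRIM25, LAMP3 and WARS1 and changes for the rest. Added after their values were seen were IFI6, SP110, IFNB1, IFNL1, IFNL2, SAMHD1, LY6E, LGALS3BP, the marker genes, the second GBP1 probe set and the other XAF1 and PARP14 probe sets. Promoter windows were searched for 3 fixed motifs.

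Replicate numbers shared between groups do not pair the arrays: only 1 of 9 same-numbered pairs had a correlation of deviations over 0.1 (−0.193 to 0.124, against −0.153 to 0.161 for other pairs). Alternatives were other added constants, level filters, normalizations, probe set rules, variance models, array weights, the replicate block, a spike covariate, only the 6 arrays compared, and each array left out.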

Additional observations from a re-analysis of the deposited data

Results flagged for a closer look

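The probe set that the annotation gives to both IFITM2 and IFITM1, and which no comparison used, was above DMSO at 0.1 µM. It averaged 3205 ± 212 in DMSO, 3954 ± 238 at 0.1 µM and 3568 ± 332 at 1.0 µM (SD, n = 3 arrays each). All 0.1 µM arrays lay above all DMSO arrays, and the 1.0 µM arrays overlapped both other groups. Both genes encode membrane proteins that hinder virus entry, and their transcripts cannot be told apart by this probe set. No group has enough arrays for the check on single outlying arrays.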

How the results depend on the processing

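Over 23 alternatives, 17 of the 20 genes called at 1.0 µM were called in every one that tested them, and 15 of the 23 called at 0.1 µM. OAS2, IFIH1 and SAMD9L lost the call at 1.0 µM in at least 1 alternative, and IFIT5, OAS2, CMPK2, IFIH1, DDX58, PARP9, PARP14 and XAF1 at 0.1 µM. In at least 1 alternative a call was gained by 7 genes at 1.0 µM (IFITM1, CMPK2, DDX58, ISG15, PARP9 and MX2 higher, SP110 lower) and by 4 at 0.1 µM (IFI44, DTX3L, RSAD2 and SAMD9L). The count called higher ranged from 19 to 26 at 1.0 µM and from 19 to 24 at 0.1 µM. At 1.0 µM, 1 gene (SP110) was called lower with either level filter, the spike covariate or array weights. The median change at 1.0 µM was 0.69 with a constant of 1 and 0.70 with either filter, and 0.52 to 0.62 on leaving out an array; at 0.1 µM it was 0.71 with a constant of 1, 0.49 with 64 and 0.53 with the mean of probe sets, and 0.54 to 0.62 on leaving out an array. The change of GBP1 at 1.0 µM turned to 0.58 with the mean of its probe sets (adjusted p = 0.0445). Between the doses, genes called higher numbered 2 with either filter, 1 with the mean of probe sets and 3 with the spike covariate or array weights; genes called lower numbered 0 with a constant of 64, median centring, every probe set as a feature, no trend, robust eBayes, the replicate block and only the 6 arrays, 4 with array weights, and 0 to 1 on leaving out an array. The median difference was −0.01 at the 60th percentile filter and 0.04 with array weights, and −0.13 to 0.01 on leaving out an array, above 0 without 0.1 µM replicate 2. With the replicate block, 20 genes were called higher at each dose and CMPK2, PARP9 and PARP14 lost the 0.1 µM call, while over all genes 2164, 903 and 8 were called at 1.0 µM, 0.1 µM and between doses, against 2875, 1396 and 67. Over all alternatives the numbers called ranged over 1987 to 4566, 712 to 2061 and 0 to 587. The 4566 counts probe sets, of 41091 tested, and the most genes called at 1.0 µM was 4130, with the spike covariate. The level filters tested fewer genes, 13948 and 10672. Why the calls moved was not tested. Signal near background limits DHX58, GBP1, IFI27 and IFI44L, whose means were under 38.95 in all groups.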
